A study of Rattus norvegicus with 2 samples.

Results

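Carbonic anhydrases are zinc enzymes that interconvert carbon dioxide and water with bicarbonate and a proton. Their members differ mainly in where they sit. Some work in the cytosol, a pair in the mitochondrion, and others face outward from the plasma membrane. In hepatocytes the mitochondrial enzyme is known for supplying bicarbonate to urea synthesis and to the carboxylation of pyruvate, and the surface enzymes are known for buffering the fluid around cells that export acid. Transcripts of 10 genes of the family (Car1, Car2, Car3, Car4, Car5a, Car5b, Car8, Car9, Car12 and Car14) were examined in rat liver. Probes were assigned to them by RefSeq transcript accession. That found 9 of the 10, each with 1 probe and 1 spot, among 13837 genes named in this way on the array. Car14 had no probe that could be assigned. The family was selected on the log2 ratio of Car4, which was among the highest of the data set, so the ratios below describe the members and test nothing.

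The tested livers came from Sprague Dawley rats given senecionine, a hepatotoxic pyrrolizidine alkaloid of ragwort-type plants, by the intragastric route at 35 mg/kg. The comparison livers came from Sprague Dawley rats dosed with sodium chloride. All livers were taken 36 h after dosing, the tissue of 3 animals was pooled per group, and each pool was hybridised to 1 one-colour (Cy3) oligonucleotide array. The sex and age of the animals are not given in the sources used here. With 1 array per group there were no replicates and no test was possible, and the spread between animals is unknown. The error beside a ratio is the scanner software's own error of the spots, which is technical.

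The arrays differed in background as well as in treatment. Well above background were 64.1% of 43379 non-control spots after senecionine and 44.4% in the control. A spot needed at least 10.8 intensity units on the senecionine array to be called so, and 20.6 on the control array. Signals were divided by each array's 75th percentile, which was 134 units for senecionine and 101 for control, so a pair of equal signals gives a log2 ratio (senecionine minus control) below 0. Of the hepatocyte markers, albumin read 55952 units after senecionine and 92727 in the control. After senecionine, 4 of the 5 measured lay past 2-fold on the lower side (median log2 ratio -1.37), or 2 of 5 with normexp background correction. Ttr, Apoa1 and Tf, also on this list of 8, were left out for flagged spots, with log2 ratios of -1.36, -0.42 and -0.66. With flagged spots kept, 5 of the 8 lay past 2-fold lower and the median was -1.25. The control array also carried brain transcripts, and their values stand below beside the members known from brain. In a bulk pool, fewer cells of a type and less RNA per cell cannot be told apart.

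Of the 9 genes with a probe, Car3 was set aside from the counts because its control spot bore a non-uniformity flag. It is described below with that flag. Of the other 8, 7 were well above background on both arrays and are called measured, and Car12 was so on the senecionine array only. Among the 7 measured members, 3 were at least 2-fold higher after senecionine (Car4, Car2 and Car9) and 1 was at least 2-fold lower (Car5a). The same calls covered 11.2% (higher) and 17.7% (lower) of all 7803 measured genes, but Car4 led to the choice of this family and nothing is read from that contrast. The median log2 ratio was 0.85 over the 7 members and -0.14 over all measured genes.

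**Figure D1:**
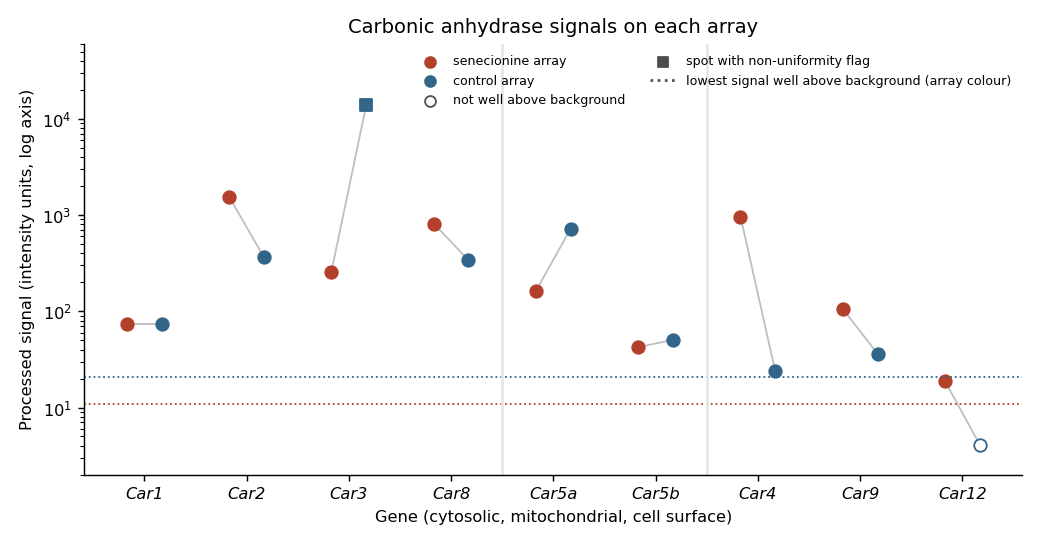
Processed signal in intensity units on a log axis for the 9 carbonic anhydrases with a probe, ordered by cellular location, with the senecionine array left of the control array in each pair and 1 spot per point. Car4 read 965 units after senecionine and 23.8 in the control, just over the lowest control signal called well above background, while Car3 and Car5a were the brighter on the control array. Levels of different genes come from different probes and cannot be compared.

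The promoters of the surface enzymes are shown first, since Car4 and Car9 were both higher after senecionine and Car9 is a textbook target of the hypoxia-inducible factors. RefSeq promoter windows of build GRCr8 were available for 6 of the 10 members. Each window ran from 250 bases before to 30 bases after the annotated start, on the gene's own strand and from 5′ to 3′. Capitals mark the core of the hypoxia response element, ACGTG, found on either strand, so the reverse strand reads CACGT. The Car5a promoter, of the measured member with the lowest ratio, is set beside them and has no match.
Car4 promoter (chr10:70325108-70325387, + strand): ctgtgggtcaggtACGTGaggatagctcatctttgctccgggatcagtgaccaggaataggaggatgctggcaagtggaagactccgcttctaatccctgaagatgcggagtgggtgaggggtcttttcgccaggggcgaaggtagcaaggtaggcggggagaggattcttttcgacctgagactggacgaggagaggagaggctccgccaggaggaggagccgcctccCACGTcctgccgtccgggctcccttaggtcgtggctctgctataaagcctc
Car9 promoter (chr5:62558774-62559053, + strand): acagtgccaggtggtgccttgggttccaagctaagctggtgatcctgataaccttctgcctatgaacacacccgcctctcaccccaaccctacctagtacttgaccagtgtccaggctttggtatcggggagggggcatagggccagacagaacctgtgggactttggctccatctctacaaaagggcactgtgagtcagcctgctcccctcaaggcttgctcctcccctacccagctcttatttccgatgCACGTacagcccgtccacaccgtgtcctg
Car12 promoter (chr8:76169565-76169844, + strand): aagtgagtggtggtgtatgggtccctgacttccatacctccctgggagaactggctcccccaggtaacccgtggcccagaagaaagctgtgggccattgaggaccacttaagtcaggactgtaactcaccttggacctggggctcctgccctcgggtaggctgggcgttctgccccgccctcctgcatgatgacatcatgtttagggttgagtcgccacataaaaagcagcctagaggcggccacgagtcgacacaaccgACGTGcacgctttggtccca
Car5a promoter (chr19:66911457-66911736, - strand): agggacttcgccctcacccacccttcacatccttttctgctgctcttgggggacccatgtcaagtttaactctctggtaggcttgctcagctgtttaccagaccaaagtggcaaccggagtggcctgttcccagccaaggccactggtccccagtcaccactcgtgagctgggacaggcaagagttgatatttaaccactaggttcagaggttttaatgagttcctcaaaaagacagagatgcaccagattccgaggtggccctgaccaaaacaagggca

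The Car4 window held 2 cores, with first bases at -237 on the forward strand and -21 on the reverse strand, counting from the annotated start. The Car9 window held 1 core on the reverse strand at 2 bases into the transcript, where the human CA9 gene is known for its hypoxia response element close to the start. The Car12 window held 1 on the forward strand at 11 bases into the transcript. Car14, not measured here, had 1 on the reverse strand at -54. The core thus occurred in 4 of 6 member promoters, and in 18.2% of all 33469 promoter windows of the same length. Neither mitochondrial gene, Car5a or Car5b, had it. The AP-1 site TGANTCA, which reads the same on both strands, occurred once in Car9 at -58 and once in Car5b at -194, and in 2342 of the 33469 windows. A STAT site, TTCNNNGAA, was found in none of the 6 windows and in 8.42% of all. No marked site of these motifs overlapped another. A match is a run of letters and not evidence of binding.

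**Figure D2:**
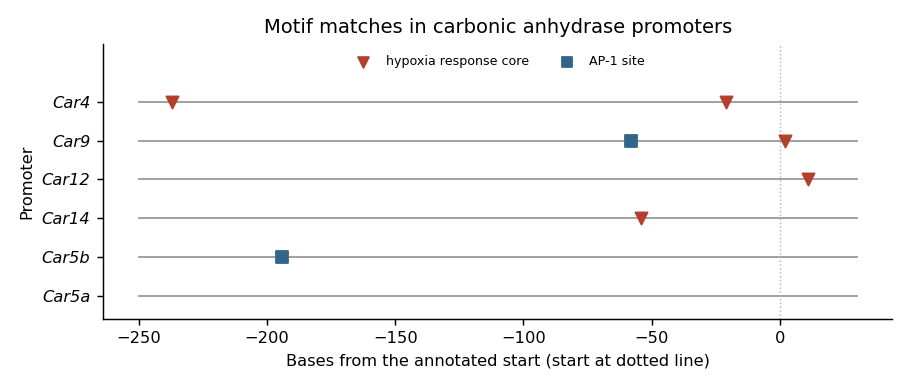
Positions of motif matches in 6 carbonic anhydrase promoters, in bases from the annotated start, over windows of 250 bases before to 30 after it. Triangles mark the first base of each ACGTG core, which was present in Car4, Car9, Car12 and Car14, and squares mark AP-1 sites in Car9 and Car5b.

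Of the surface enzymes, Car4 and Car9 were past 2-fold higher after senecionine, Car9 within 2-fold with normexp correction or local background subtraction (log2 ratios of 0.52 and 0.67). Car4 is anchored to the outer face of the plasma membrane by a lipid and is known from capillary endothelium and kidney. Its probe gave 965 units on the senecionine array and 23.8 on the control array, for a log2 ratio of 4.93 ± 0.32 (spot error), or 30.5-fold higher. It ranked 10 from the top of 7803 measured genes. The control spot was faint: its median pixel signal was 78 over a local background of 19, against 1026 over 18 on the senecionine array. The size of the ratio therefore depended on how background was removed. It was 3.88 on the log2 scale when the local background alone was subtracted and 3.42 with normexp correction. The fold was thus smaller by more than 1.5 times in both. Normexp is a model-based background correction, run here with an added offset of 50 units, which makes ratios of faint spots smaller by design. The local background subtracted at the control spot was 19 units, whereas the scanner software's fitted background averaged 61.3 units on that array. The authors' deposited table gives Car4 log2 values of 10.06 for senecionine and 4.94 for control. The 3 measured genes nearest to Car4 in the pair of scaled signals, by distance over the 2 arrays, were the monocyte attractant Ccl7 (log2 ratio 4.55 ± 0.28), the carboxylesterase Ces2c (4.23 ± 0.29) and the protein C receptor Procr (4.35 ± 0.34).

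Car9, a transmembrane enzyme with its active site outside the cell, is known in human tumours for its strong induction by low oxygen. It read 106 units after senecionine and 36.3 in the control, a log2 ratio of 1.13 ± 0.27. That is 2.19-fold higher and close to the 2-fold line. With normexp correction the log2 ratio was 0.52, and with local background subtraction 0.67, both within 2-fold. Car12, a transmembrane relative of Car9 known from secretory epithelia, read 18.7 units after senecionine, well above background, and 4.11 in the control, not well above background. No fold is given, since after scaling the senecionine signal lay under the lowest control signal called well above background. Detection on the senecionine array only was common, at 19.1% of 13667 named genes.

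Markers of cell types known to carry surface carbonic anhydrases differed in direction. Endothelial markers, of which 5 of 10 with a probe were measured, stood past 2-fold on the lower side in 3 cases and on the higher side in 0, with a median of -2.04. Another 3 (Cdh5, Plvap and Emcn) were well above background after senecionine only, with log2 ratios of 0.44, -0.01 and -0.32, and the median was -0.60 when detection on 1 array sufficed and -0.44 with no filter on dim probes. Dnase1l3, of sinusoidal endothelium, read 80.5 units after senecionine and 1254 in the control, the VEGF receptor Kdr 888 and 4974, and Oit3 119 and 370. Eng and Lyve1 had log2 ratios of -0.64 and -0.55, within 2-fold, though the dimmer probe of Lyve1 gave -1.02, past 2-fold lower. Summed over the 10, the list reached 20.6 times the array's 75th percentile after senecionine and 83.5 times in the control. The defining endothelial markers Pecam1 and Cd34 were not well above background on either array. Of the neutrophil markers, 4 of 4 measured genes were past 2-fold higher and 6 more were detected after senecionine only. Among these 6, Elane was the dimmer after senecionine, at 14.5 units against 17.9 in the control, where it was not well above background. Their summed level was 86.1 times the 75th percentile after senecionine and 5.38 times in the control. The calgranulin S100a9 read 4412 units after senecionine and 36.1 in the control, whereas Ngp was not well above background on either array. Bile duct markers Epcam and Krt19 were 5.83-fold and 3.15-fold higher, the third measured marker, Cldn4, had a log2 ratio of 0.34 on its measured probe and was at least 12.9-fold higher on its other probe, which was not well above background in the control. Sctr and Spp1 were detected after senecionine only, and Cftr on neither array. The summed level of the bile duct list was 26.0 times the 75th percentile after senecionine and 1.25 times in the control. Most of the senecionine sum came from the 1 gene Spp1, at 2899 units. The part of these cells in the Car4, Car9 and Car12 signals was not tested.

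**Figure D3:**
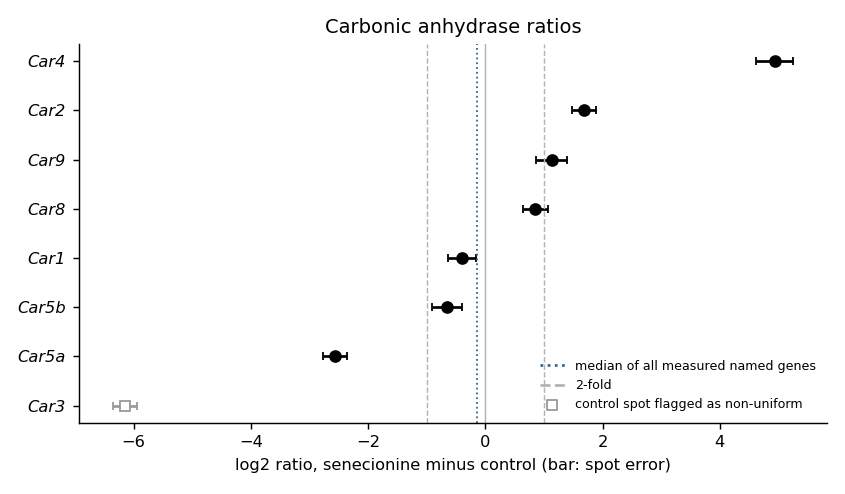
Log2 ratio, senecionine minus control, of the 7 measured carbonic anhydrases (filled) and of Car3 (open square, control spot flagged), with spot error bars. Ratios ran from 4.93 for Car4 to -2.56 for Car5a, and to -6.15 for Car3 with its flagged spot. Dashed lines mark 2-fold and the dotted line the median of all measured genes.

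The cytosolic enzymes did not share a direction. Car2, the fast cytosolic form found in red cells, bile ducts, kidney and oligodendrocytes, read 1549.9 units after senecionine and 365 in the control. Its log2 ratio was 1.68 ± 0.20, or 3.20-fold higher, and it ranked 329 from the top. Unlike Car4 it was bright on both arrays, and its log2 ratio stayed between 1.55 and 1.80 under every alternative run. In the authors' deposited table it was 1.87. Car1, the abundant red cell form, read 74.2 units after senecionine and 73.5 in the control. Its log2 ratio was -0.39 ± 0.24, within 2-fold, and 38.6% of measured genes had a lower one.

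Red cell markers were set beside Car1 and Car2. Of 10 with a probe left after flags, 6 were measured. The 2-fold line was passed upward by 3 and downward by 0 (median 1.23), and 3 more were detected after senecionine only. Beta-globin Hbb was 3.63-fold, the haem synthesis enzyme Alas2 2.87-fold and the haemoglobin chaperone Ahsp 2.78-fold higher. The anion exchanger of the red cell membrane, Slc4a1, had a log2 ratio of 0.99 ± 0.21, just inside 2-fold. Summed, the list came to 956 times the 75th percentile after senecionine and 613 times in the control, most of it from alpha-globin, and Rhag was not well above background on either array. Hbb-b1, also on the list, read 27548 units after senecionine and 29114 in the control, a log2 ratio of -0.49, on spots flagged on both arrays. With flagged spots kept the median of the list was 0.99. The part of red cells in either was not tested.

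Car8 lacks carbonic anhydrase activity and is known in cerebellar Purkinje cells as a binding partner of the inositol trisphosphate receptor. It read 816 units after senecionine and 340.3 in the control, a log2 ratio of 0.85 ± 0.20, within 2-fold. With local background subtraction the ratio was 1.02, past the line. Brain markers on these arrays went the other way. Of 13 with a probe left after flags, 7 were measured. Downward, 5 passed 2-fold, and upward 0 (median -2.80), while 3 others were detected after senecionine only and 1 in the control only. The myelin genes Mbp and Mag had log2 ratios of -6.43 ± 0.29 and -4.05 ± 0.31. The list summed to 3.05 times the 75th percentile after senecionine and 22.3 times in the control. Grin1, also a listed brain marker, was left out of these figures for flagged spots on both arrays. With them kept it read 471 units after senecionine and 4598 in the control, a log2 ratio of -3.70. The Purkinje cell gene Calb1 was not well above background on either array, and Pcp2 read 19.4 units after senecionine and, not well above background, 11.4 in the control. Car2 and Car8, both known from brain, were the brighter on the array with the lower brain markers. The part of brain RNA in either was not tested.

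Car3 carried the widest difference of the family, on a flagged spot. It is a cytosolic form of low activity, abundant in muscle, fat and the liver of male rats, and is known there as a protein that depends on growth hormone. Its probe read 258 units after senecionine and 13811 in the control. On the control array the spot was flagged for uneven pixels, and its median pixel signal of 8736.5 was well under the processed signal. On the senecionine array the median pixel signal was 268.5 and the spot bore no flag. With the flagged spot kept, the log2 ratio was -6.15, or 70.9-fold lower after senecionine, ranking 9 from the bottom of 7983 genes. Read from median pixels, which depend less on bright or dark patches, it was 40.5-fold lower with local background subtraction and 36.3-fold lower with normexp correction. The authors' deposited table lists Car3 at log2 values of 8.07 for senecionine and 14.01 for control. With flagged spots kept, the members at least 2-fold lower number 2, beside 17.9% of all genes.

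Genes known for male-biased expression or for dependence on growth hormone were looked at beside Car3. All 12 on the list were measured and at least 2-fold lower after senecionine, with a median of -2.94 (10 of 12 under quantile normalization or cyclic loess). The same call covered 17.7% of all measured genes, and the hepatocyte markers had a median of -1.37. The list was chosen with earlier results of these data known, so its count describes these genes and tests nothing. The male-specific cytochrome Cyp2c11 read 561 units after senecionine and 44003 in the control. Obp3, an alpha-2u globulin, read 11.5 and 947 units, and the steroid dehydrogenase Hsd17b2 407 and 11042. Serpina6, the corticosteroid carrier, was 18.3-fold lower. Muscle and fat markers gave no common direction: the myoglobin gene Mb, the 1 muscle marker measured of 6, had a log2 ratio of -0.47, and of 2 measured fat markers Fabp4 was 9.17-fold higher and Cfd 4.42-fold lower. Ckm and Tnnt3 were well above background after senecionine only, and Myl1 in the control only. Adipoq, Lep, Acta1 and Myh4 were not well above background on either array. The fat list summed to 4.77 times the 75th percentile after senecionine and 7.25 times in the control, and the muscle list to 2.43 and 3.16 times.

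The mitochondrial pair was lower or near the middle. Car5a, the liver form that feeds bicarbonate to carbamoyl phosphate synthesis and to pyruvate carboxylase, read 163 units after senecionine and 724 in the control. Its log2 ratio was -2.56 ± 0.21, or 5.91-fold lower, ranking 178 from the bottom of 7803. It lay between -2.69 and -1.97 under the alternatives. Car5b, the more widely expressed mitochondrial form, read 42.4 units after senecionine and 50.6 in the control, a log2 ratio of -0.66 ± 0.25, within 2-fold. The gap between Car5b and Car5a was 1.90 ± 0.33, or 5.81 times its spot error. The measured genes nearest to Car5a in the pair of scaled signals were Hsd3b1, a steroid dehydrogenase (log2 ratio -2.63 ± 0.21), Gtpbp6, a GTP-binding protein (-2.33 ± 0.21), and Pdxp, the pyridoxal phosphatase (-2.67 ± 0.21).

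Enzymes that consume bicarbonate were lower beside Car5a. Past 2-fold on the lower side were 5 of 7 measured genes, and on the higher side 0, with a median of -1.20 (3 lower with normexp correction or local background subtraction). Over all measured genes, 17.7% were at least 2-fold lower and the median was -0.14. The hepatocyte markers had a median of -1.37, and the part of a general fall of hepatocyte transcripts was not tested. Cps1, which starts the urea cycle with bicarbonate in the mitochondrion, read 2236 units after senecionine and 3677 in the control, a log2 ratio of -1.13 ± 0.20. The propionyl-CoA carboxylase subunit Pcca was 3.70-fold lower on its brighter probe, though its other probe gave a log2 ratio of -0.37. Both subunits of methylcrotonyl-CoA carboxylase were lower, Mccc2 3.05-fold and Mccc1 2.30-fold. The second acetyl-CoA carboxylase, Acacb, was 2.82-fold lower on faint spots, at 13.9 units after senecionine and 29.6 in the control. The other propionyl-CoA carboxylase subunit, Pccb, had a log2 ratio of -0.94, and Cad, which uses bicarbonate for pyrimidine synthesis in the cytosol, one of 0.28. The remaining pair on the list had a flagged spot each. Pyruvate carboxylase, Pc, read 1929.9 units after senecionine and 10006 in the control on a spot flagged in the control. Acaca, which makes malonyl-CoA for fatty acid synthesis, read 3169 and 595 units with the senecionine spot flagged.

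Ordered by ratio, the measured members ran Car4, Car2, Car9, Car8, Car1, Car5b and Car5a. Car4 stood 3.25 ± 0.38 above Car2 on the log2 scale. That gap was 1.68 with normexp correction and 2.10 with local background subtraction, and it rests on the gene that led to the choice of the family. Car9 and Car8 differed by 0.28 ± 0.34 and Car1 and Car5b by 0.27 ± 0.35, both within the spot error, so neither pair has a settled order. Car2 and Car9 differed by 0.55 ± 0.34, or 1.62 errors, and Car8 and Car1 by 1.25 ± 0.31. These errors hold for the spots and not for animals.

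In assembly GRCr8, Car2, Car3, Car1 and Car13 lie next to each other on chromosome 2, in that order with no other gene between them. Their signals did not move together. Car2 was 3.20-fold higher, its neighbour Car3 far lower on its flagged spot, and Car1 within 2-fold. Car13, a cytosolic form, was not well above background on either array, at 3.44 units after senecionine and 5.30 in the control.

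Family genes outside the 10 were mostly faint. Of 8 listed, 6 had a probe and 2 were measured, both at least 2-fold lower after senecionine. Ptprz1, a receptor phosphatase with a carbonic anhydrase-like domain known from glia, read 28.1 units after senecionine and 261 in the control, a log2 ratio of -3.62 ± 0.24. Its other probe was not well above background on either array. It moved with the brain markers given above, and their part in it was not tested. The secreted form Car6, known from saliva, read 14.8 units after senecionine and 58.0 in the control, a log2 ratio of -2.37 ± 0.31, and was within 2-fold with normexp correction. Car15, a lipid-anchored form of rodents, read 13.3 units after senecionine and, not well above background, 4.62 in the control. Ptprg, the sister phosphatase, was detected on 1 of 2 probes after senecionine only, and Car7 on neither array. Car10 and Car11 had no probe that could be assigned.

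Transporters that work with these enzymes, listed with some partner genes, had no common direction. Of 7 measured bicarbonate and anion exchangers, 2 were at least 2-fold higher, 2 lower and 3 within 2-fold (median -0.01). The sodium bicarbonate cotransporter Slc4a4 read 646 units after senecionine and 198 in the control, 2.45-fold higher, and Slc4a11 113 and 23.6 units, 3.60-fold higher. With normexp correction or local background subtraction 1 was higher instead of 2. The chloride bicarbonate exchanger Slc4a3 was 6.40-fold lower and the sulphate exchanger Slc26a1 2.86-fold lower. Slc4a2, the exchanger of the bile canaliculus and bile ducts, had a log2 ratio of -0.39. The list of proton and lactate exporters also held partner proteins and lactate dehydrogenases. Among its 9 measured genes, 2 were higher and 3, with the dehydrogenase Ldhb among them, lower. With normexp correction or local background subtraction 1 was lower. Over all measured genes, 11.2% were at least 2-fold higher and 17.7% lower. Slc16a3, the lactate exporter of glycolytic cells, read 4587 units after senecionine and 82.5 in the control, 41.9-fold higher. Emb, a partner protein of lactate carriers, was 9.16-fold higher, whereas the lactate dehydrogenase Ldhb was 14.8-fold and the carrier Slc16a7 2.24-fold lower. Of 5 measured water and gas channels, Aqp5 was 2.71-fold higher (within 2-fold with normexp correction or local background subtraction) and the glycerol channel Aqp9 2.69-fold lower. Aqp1, which passes water and carbon dioxide, had a log2 ratio of 0.28 ± 0.07 over repeated spots, the ammonia channel Rhbg one of -0.10, and Aqp8 one of -0.58, while Aqp3, Rhag and Rhcg were not well above background on either array.

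Targets of the hypoxia-inducible factors were higher as a list, beside Car9 and Car12. Upward, 9 of 14 measured genes passed 2-fold, and downward 0, beside 11.2% (higher) and 17.7% (lower) of all measured genes. The median was 1.42, against -0.14 over all genes. Under the other scalings, background corrections and probe rules, 7 to 10 passed upward, with medians of 1.05 to 1.57. The 4 others with a probe were detected after senecionine only, as were 19.1% of all named genes. The oxygen-sensing hydroxylase Egln3 read 1288 units after senecionine and 67.9 in the control. Adm, a vasodilator peptide, read 1564 and 92.1 units, the collagen hydroxylase P4ha1 501 and 50.2, and Ankrd37 805 and 96.7. The glucose transporter Slc2a1 was 5.01-fold and the mitophagy protein Bnip3 3.39-fold higher. Vegfa was 3.44-fold higher on its brighter probe and had a log2 ratio of 0.73 on the other. Pdk1, also a hypoxia target, had a log2 ratio of -0.37. The ratio of Car9, 1.13, lay under the median of this list.

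**Figure D4:**
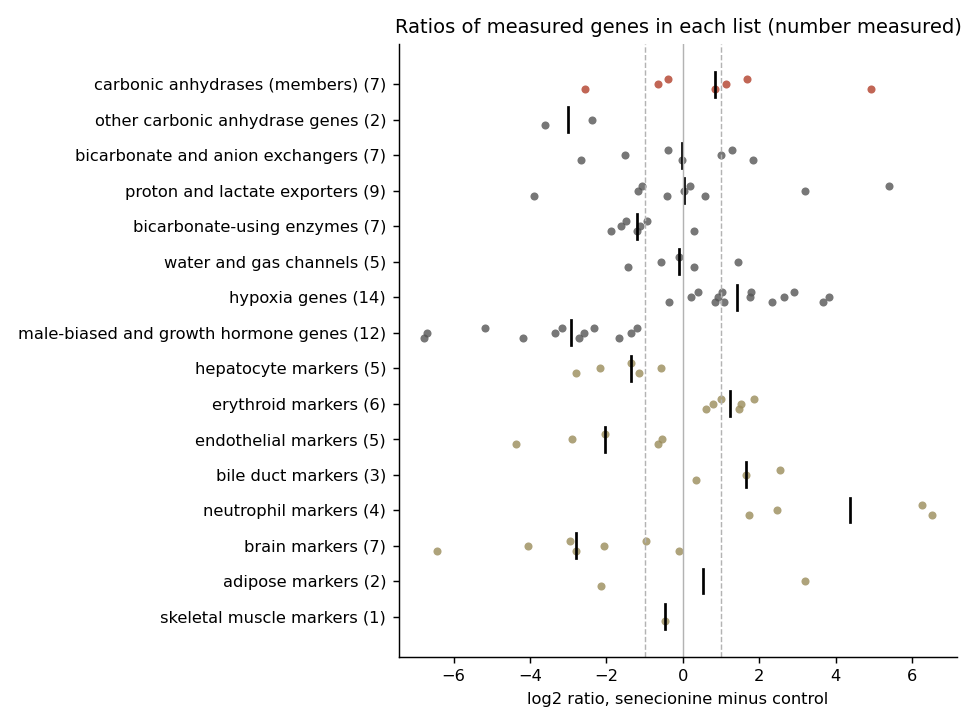
Log2 ratio, senecionine minus control, of each measured gene in the carbonic anhydrase, pathway and marker lists, with the list median as a bar and the number measured in brackets. All 12 male-biased and growth hormone genes lie past 2-fold lower, 9 of 14 hypoxia genes past 2-fold higher, and the 7 carbonic anhydrases spread from -2.56 to 4.93. Of all measured genes, 17.7% lie past 2-fold lower and 11.2% past 2-fold higher. The lists were chosen with earlier results of these data known.

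The sign of the log2 ratio of each of the 7 measured members was the same under every scaling and background correction run. For Car1 the sign means little, since its unscaled signals were 74.2 and 73.5 units. Its log2 ratio was -0.16 with normexp correction, beside a spot error of 0.24 in the main run. The authors' deposited table comes from the same 2 arrays and its direction was found against these signals, so its like signs add no support. That table holds 7404 probes, each with an absolute log2 difference of at least 1.0001, so it is a selected list. It names 5 of the 9 members, with Car2, Car4 and Car9 as higher and Car3 and Car5a as lower, against 9.76% of all 41012 probes listed as higher and 8.29% as lower. Background handling moved Car4 and Car9 more than scaling did, and Car2 little.

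**Figure D5:**
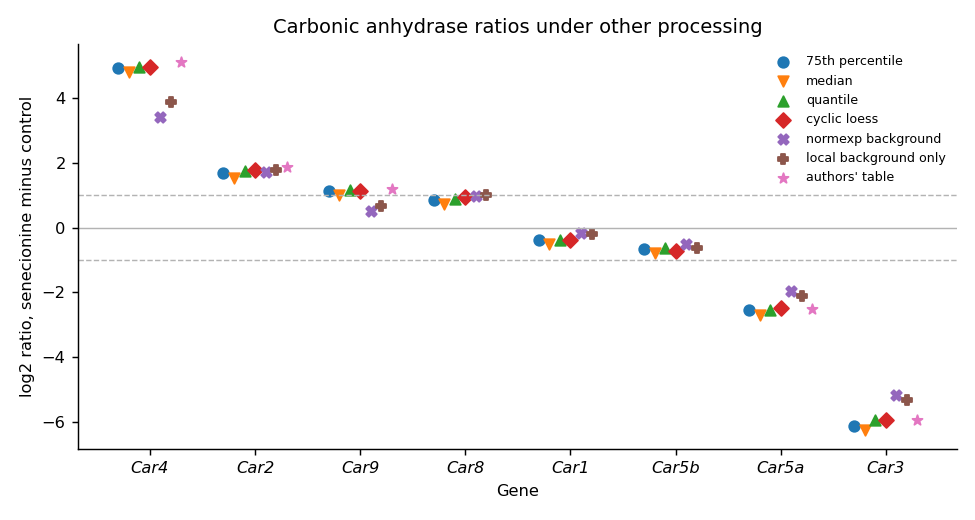
Log2 ratio, senecionine minus control, of 7 measured carbonic anhydrases and of Car3 with its flagged spot kept, under the scaling and background settings run and in the authors' deposited table. Car4 ranged from 3.42 to 5.12 and Car9 from 0.52 to 1.19, the lowest with normexp correction in both cases.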

How the data were processed

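Per the file headers and the submitters' notes, the authors extracted the deposited intensity values using version 10.7.3.1 of Agilent Feature Extraction, which also took off background and spatial trends on each array. The deposited series table of the authors is in log2 units of unstated scaling, with medians of 6.10 for senecionine and 6.03 for control. Its direction was found against the scanner signals, and 7355 of 7355 shared probes had the same sign.

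From the processed signal, log2 was taken, the 75th percentile of an array's non-control spots was subtracted from its values, and spots of a probe averaged. Control spots were left out, as were flagged spots (497 on the senecionine array, 522 on the control array). Of 40516 probes, 17250 matched 13667 genes by unversioned RefSeq accession (GRCr8). No probe coordinates are given, because GRCr8 is not the build of the array design. A gene's brightest probe well above background on both arrays represented it. A gene was called at a log2 ratio of at least 1 in either direction. No test could be made between 1 array and 1 array, and precision is limited by this number of arrays. The counting was tested on simulated data.

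Members and lists were chosen with earlier results of these data known. The text names every member and probe and could name, per list, up to 4 genes with the largest absolute ratio, any gene of a list of 10 or fewer (not all are named), defining markers without signal, and the 3 genes nearest to Car4 and to the lowest member. Others named in longer lists (Slc2a1, Bnip3, Vegfa, Pdk1, Slc4a2) were added after their values were seen. 1 item is not reported here. R 4.3.3 with limma 3.58.1 gave the alternative normalizations, and Python 3.11.15 with pandas 2.3.3 and numpy 2.4.6 the rest (figures: matplotlib 3.10.9).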

Additional observations from a re-analysis of the deposited data

How the results depend on the processing

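No paired analysis was possible because each group had 1 array and the values come from no test. The count of members at least 2-fold higher was 3, and 1 at a 4-fold threshold. With normexp correction it was 2, without Car9, and with local background subtraction, added after seeing the data, it was 3 with Car8 in place of Car9. The count at least 2-fold lower was 1, and 2 at a 1.5-fold threshold, with flagged spots kept or in the authors' table. The median log2 ratio of the measured members, 0.85, was 0.52 with normexp correction and 0.23 with flagged spots kept, which adds Car3. Scaling by the median shifted the median of all genes by -0.13. Over all genes, 876 were at least 2-fold higher and 1379 lower, but 613 and 761 with normexp correction, 700 and 969 with local background subtraction, 1642 and 2424 at 1.5-fold and 213 and 361 at 4-fold. When detection on 1 array sufficed, 2389 were higher and 1562 lower, and with no filter 2394 and 3000. Of 510 list values recomputed, 426 stayed near their first value, 84 moved and 0 turned round from past 2-fold. The normexp offset of 50 units makes ratios of faint spots smaller by design, and the cause of the other shifts was not tested. Faint control signals limit Car4, Car9 and Car12.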
